A study of Mus musculus with 4 samples.

Results

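The 10 genes described here build the MHC class I antigen presentation pathway and the immunoproteasome: B2m, H2-K1, H2-D1, Tap1, Tap2, Tapbp, Psmb8, Psmb9, Psmb10 and Ubd. They were chosen by name, and all 20 probes that the platform annotation gives to them were read, out of 45281 probes and 19057 named genes. Of the 20 probes, 18 were detected on at least 1 array and 17 on all 4, where detected means a detection p under 0.01. Each of the 10 genes had a probe detected on every array.

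MHC class I molecules display short peptides from inside the cell to CD8 T cells. A heavy chain (H2-K1 and H2-D1 encode the classical ones of this strain) pairs with beta-2 microglobulin (B2m), and the peptide is pumped into the endoplasmic reticulum by the Tap1 and Tap2 transporter and loaded with the help of tapasin (Tapbp). The peptides come from the proteasome, in which interferon gamma can replace the catalytic subunits Psmb6, Psmb7 and Psmb5 with Psmb9, Psmb10 and Psmb8. Ubd encodes FAT10, a ubiquitin-like protein that interferon gamma and tumour necrosis factor induce together and that marks proteins for the proteasome. Hepatocytes carry little class I protein at rest and more of it during viral hepatitis.

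The RNA came from livers of Med1 floxed (Med1fl/fl) C57BL6/J mice, 5.5 weeks old, that received an adenovirus through the tail vein. Ad-Med1, named Ad-His-Med1 in the characteristics, carried Med1, a subunit of the Mediator complex that joins transcription factors to RNA polymerase II, and Ad-LacZ carried beta-galactosidase as the control. Livers were taken on day 5 or day 3, which gives the groups Ad-Med1 day 5, Ad-LacZ day 5, Ad-Med1 day 3 and Ad-LacZ day 3, with 1 Illumina bead array each. All groups carry the floxed allele, no Cre is named in the labels, and no uninjected liver was analysed here, so each comparison is between 2 viruses or 2 days after a virus. Whether an array holds 1 mouse or a pool is not given.

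Ad-Med1 arrays were brighter, with mean intensities of 968 (day 5) and 925 (day 3), against 475 (day 5) and 350.2 (day 3) after Ad-LacZ. Detected probes numbered 15294 and 14752 in Ad-Med1, against 14062 and 12899 in Ad-LacZ. The Ad-LacZ day 3 array stood apart, with Pearson correlations of 0.866 to 0.912 with the other arrays over 16767 probes, while the other pairs reached 0.928 to 0.966. Med1 probe ILMN_2658227 read 12.22 (day 5) and 11.16 (day 3) on the log2 scale in Ad-Med1 and was not detected in Ad-LacZ. Med1 probes ILMN_1220563 and ILMN_3106388 were detected on all arrays, those of Ad-LacZ included. They differed between viruses by 0.20 and 2.19 at day 5 and by 1.99 and 2.08 at day 3. The remaining Med1 probes, ILMN_1222371 and ILMN_2695175, were detected on no array. Hepatocyte markers were detected on all arrays for 10 of 11 genes, and Alb was not detected on Ad-LacZ day 3. Sex-linked transcripts also differed between arrays. Eif2s3y, on the Y chromosome, read 10.54 in Ad-Med1 day 5 and 9.52 in Ad-LacZ day 3 and was not detected on the other arrays, and Xist was undetected on Ad-LacZ day 3 alone. Ad-Med1 day 5 thus detected both Eif2s3y and Xist. Of the other Y chromosome genes, Kdm5d was detected in Ad-Med1 day 5 alone. Uty was detected on all arrays but Ad-LacZ day 5, so Ad-Med1 day 3 detected both Uty and Xist. Whether either Ad-Med1 array holds RNA of both sexes, and the part of sex in the results below, were not tested.

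With 1 array per group, a difference between arrays has no replicate check, and no p-value is given for it. A gene was called different when it differed at least 2-fold and was detected on at least 1 of the arrays compared. Each array enters 1 comparison of viruses and 1 of days, so the comparisons share arrays. Signals are log2 values after background correction and quantile normalization, and a difference is the first-named array minus the second. Levels of different probes are not set against each other.

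At day 5, 3 of the 10 genes were called higher in Ad-Med1 against Ad-LacZ and 0 lower, while 10.2% of the 9261 genes tested were higher and 7.68% lower. Those 3 were Ubd, Psmb8 and Psmb9. The median difference of the 10 genes was 0.78, against 0.07 for all genes. At day 3, H2-K1 was called higher and Tapbp and Psmb10 lower, with a median of -0.06 for the 10 genes and -0.03 for all genes, of which 17.4% were called higher and 12% lower. From day to day, 6 of the 10 genes were called higher at day 5 than at day 3 in Ad-Med1, 0 lower, beside 5.02% and 2.91% of all genes. Those 6 were Tap1, Tapbp, Psmb8, Psmb9, Psmb10 and Ubd, and the median of the 10 genes was 1.29, against -0.04 for all genes. In Ad-LacZ the comparison of days gave 1 gene higher, H2-K1, and 0 lower, beside 12.1% and 6.47% of all genes, with a median of -0.03. Set against the Ad-LacZ array of the other day, 5 of the 10 genes were called higher in Ad-Med1 day 5 and 0 lower (all genes, 18.1% and 11.7%), and in Ad-Med1 day 3 none was called higher and 1, Tapbp, lower (all genes, 9.26% and 6.64%). Signal was highest in Ad-LacZ day 3 for B2m and Tapbp, in Ad-Med1 day 3 for H2-K1 and in Ad-Med1 day 5 for the rest. For all genes, the share highest on each array was not counted.

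**Figure D1:**
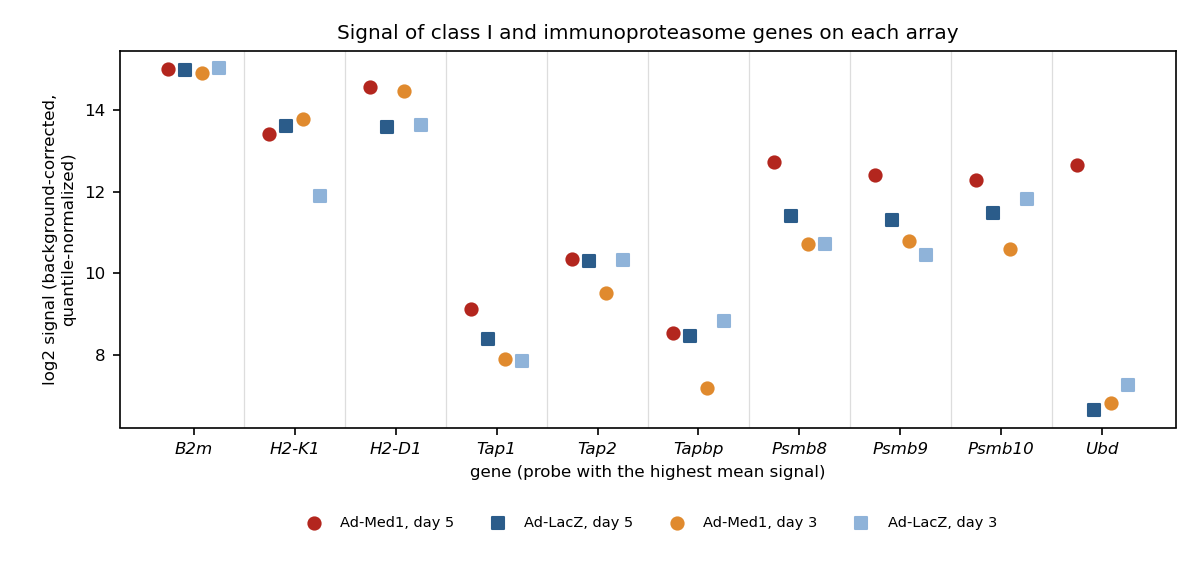
Log2 signal (vertical axis) of each of the 10 genes (horizontal axis), 1 point per array; circles are Ad-Med1 and squares Ad-LacZ, dark for day 5 and pale for day 3. Psmb8, Psmb9, Psmb10 and Ubd are highest in Ad-Med1 day 5, B2m lies between 14.89 and 15.01 on all arrays, and H2-K1 is low in Ad-LacZ day 3 only.

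Scaling matters for these sums, because Ad-Med1 arrays were brighter. With each array set to its own median in place of quantiles, the median difference of all genes between viruses was 0.83 at day 5 and 1.004 at day 3 without background correction, and 0.91 and 1.14 with it. Differences are therefore also given less the median of all genes, over 7 ways of processing. Between the days of Ad-Med1, 2 arrays of like brightness, that median stayed between -0.05 and -0.03.

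**Figure D2:**
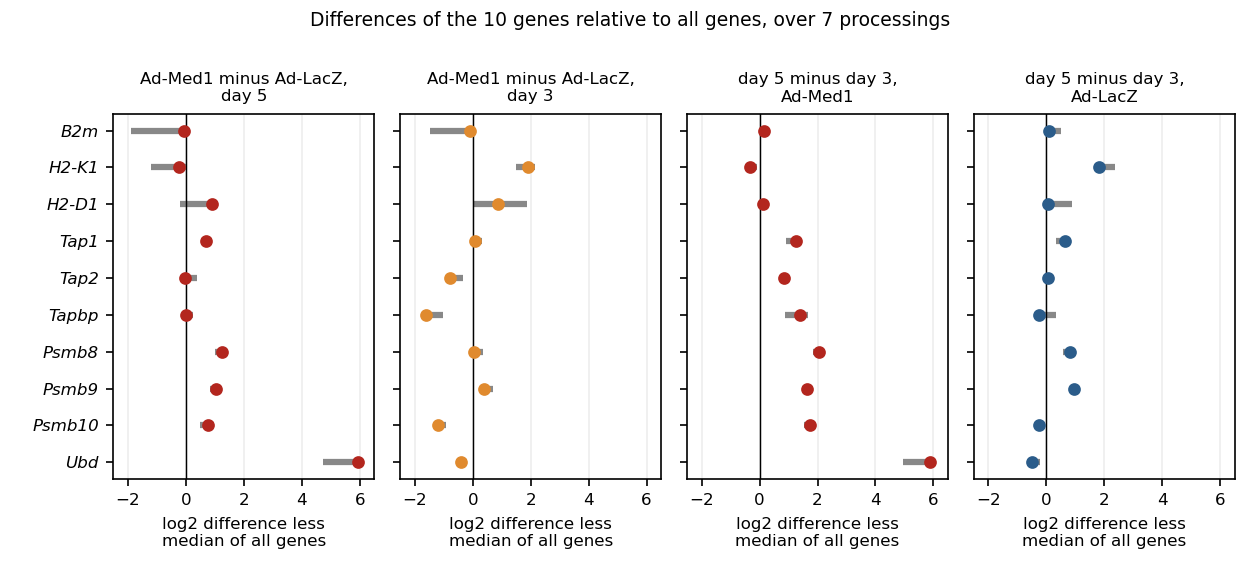
Log2 difference less the median of all genes (horizontal axis) for each gene, in 4 comparisons; the point is the value as reported and the grey bar the range over 7 processings. Psmb8, Psmb9 and Ubd lie right of 0 at day 5 and between the days of Ad-Med1 under every processing, while the bars of B2m, H2-K1 and H2-D1 are wide between viruses.

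Among the class I chains, B2m read alike on all 4 arrays, and the heavy chains did not. B2m, the shared light chain, read 15.00 (day 5) and 14.89 (day 3) in Ad-Med1, against 14.99 (day 5) and 15.01 (day 3) in Ad-LacZ. All 4 values lie within 0.12, and the second detected B2m probe, ILMN_1216746, differed by 0.05 between viruses at day 5 and by -0.15 at day 3. B2m is among the brightest probes, at 84.2% (day 5) and 81.1% (day 3) of the highest intensity on its array after Ad-Med1 and at 68.0% and 56.4% after Ad-LacZ. Less the median of all genes, the difference between viruses ran from -1.89 to 0.01 at day 5 and from -1.46 to -0.01 at day 3 over the 7 processings. Whether so bright a probe can still show a difference was not tested.

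H2-D1, a classical heavy chain, was higher in Ad-Med1 on both days. Its brightest probe read 14.55 (day 5) and 14.47 (day 3) in Ad-Med1, against 13.57 (day 5) and 13.62 (day 3) in Ad-LacZ. The difference was 0.98 (1.97-fold) at day 5 and 0.85 (1.80-fold) at day 3, both just under the 2-fold threshold. Its other detected probes gave the same direction, with 0.97 and 1.15 for ILMN_2476267 and 1.37 and 3.56 for ILMN_2944011 at day 5 and day 3. ILMN_2944011 read 12.26 in Ad-Med1 day 5 and 10.89 in Ad-LacZ day 5, against 12.10 in Ad-Med1 day 3 and 8.54 in Ad-LacZ day 3, so its 11.8-fold value at day 3 rests on 1 low control array. The remaining probe, ILMN_2608090, was detected on no array. Over both days, in a limma fit with virus and day as terms, H2-D1 differed by 0.91 ± 0.30 (SE, 4 arrays), with an unadjusted p of 0.0425 and an adjusted p of 0.367. This difference depends on scaling: less the median of all genes it ran from -0.21 to 1.06 at day 5 and from 0.03 to 1.87 at day 3.

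For H2-K1, the other classical heavy chain, the difference of the brightest probe did not repeat between days. That probe read 13.42 (day 5) and 13.77 (day 3) in Ad-Med1, against 13.60 (day 5) and 11.89 (day 3) in Ad-LacZ, and the low value belongs to the Ad-LacZ day 3 array. At day 3 the difference between viruses was therefore 1.88 (3.68-fold), and at day 5 it was -0.18. Set against Ad-LacZ day 5, the Ad-Med1 day 3 value differed by 0.18. The weaker probe ILMN_2634603 was not detected on Ad-LacZ day 3 and was at least 3.25-fold higher there in Ad-Med1, with -0.17 at day 5. The third probe, ILMN_2795520, was higher in Ad-Med1 on both days, by 0.47 at day 5 and 1.11 at day 3. Probes of class I heavy chains can share sequence with related transcripts, and the specificity of these probes was not tested.

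**Figure D3:**
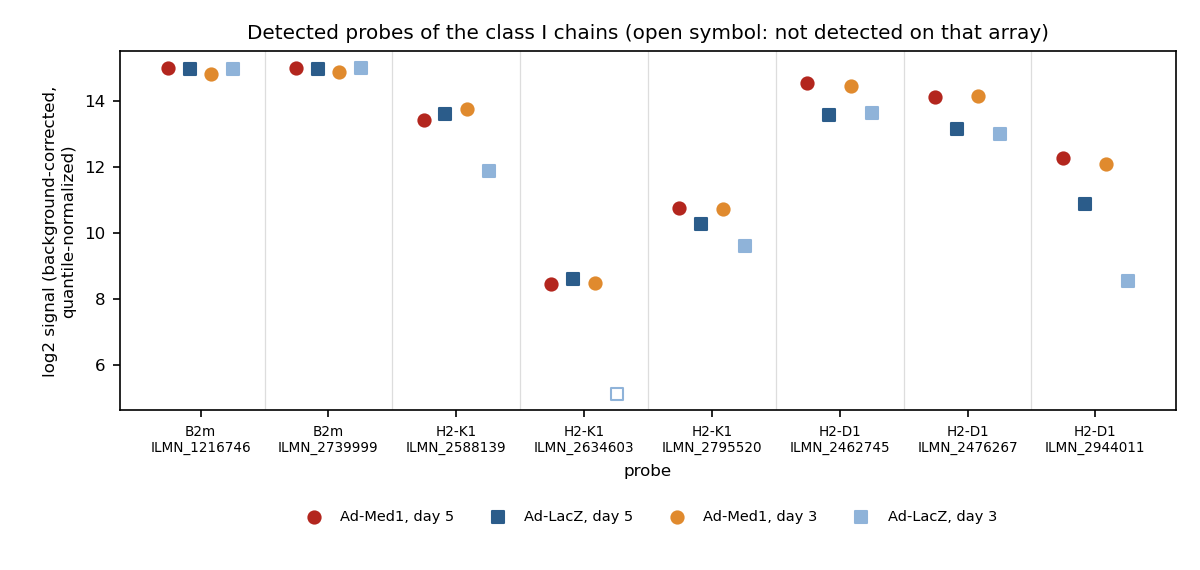
Log2 signal (vertical axis) of the 8 detected probes of B2m, H2-K1 and H2-D1, 1 point per array; an open symbol means not detected. The H2-D1 probes are higher after Ad-Med1 on both days, and the H2-K1 probes are lowest in Ad-LacZ day 3.

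The RefSeq promoter windows of these genes (build GRCm38.p6) are shown because the 3 chains share a motif while their signals differed in pattern. Each line below runs 5′ to 3′ over the 250 bases before the transcript start, with position -1 next to the start. Capitals mark matches to an NF-kappaB motif, to the interferon-stimulated response element GAAANNGAAA (ISRE) or to the gamma-activated site TTCNNNGAA (GAS), searched on both strands. B2m lies at chr2:122147437-122147686 on the plus strand, H2-K1 at chr17:34000348-34000597 on the minus strand and H2-D1 at chr17:35262844-35263093 on the plus strand.
B2m: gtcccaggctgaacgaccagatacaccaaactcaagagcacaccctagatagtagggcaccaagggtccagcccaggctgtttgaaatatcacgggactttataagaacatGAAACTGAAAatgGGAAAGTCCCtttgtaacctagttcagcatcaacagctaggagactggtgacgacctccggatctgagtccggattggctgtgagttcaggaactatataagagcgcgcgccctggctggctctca
H2-K1: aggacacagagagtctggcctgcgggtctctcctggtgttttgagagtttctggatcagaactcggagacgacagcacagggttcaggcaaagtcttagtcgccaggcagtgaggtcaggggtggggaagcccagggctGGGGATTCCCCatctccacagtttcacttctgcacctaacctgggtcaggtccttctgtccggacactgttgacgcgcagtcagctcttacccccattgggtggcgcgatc
H2-D1: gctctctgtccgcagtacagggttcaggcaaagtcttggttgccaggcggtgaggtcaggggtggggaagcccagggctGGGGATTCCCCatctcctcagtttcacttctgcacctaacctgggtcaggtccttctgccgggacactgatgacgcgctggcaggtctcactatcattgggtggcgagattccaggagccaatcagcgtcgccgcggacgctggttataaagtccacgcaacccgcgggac
B2m holds an ISRE match at -139 to -130 and an NF-kappaB match at -126 to -117. H2-K1 and H2-D1 hold the same run of 11 letters, made of a pair of overlapping NF-kappaB matches, from -111 in H2-K1 and from -171 in H2-D1. Of 32851 promoter windows of 300 bases, 4.51% hold an NF-kappaB match, 3.44% an ISRE and 8.30% a GAS. Of the 9 genes with a window, 4 hold an NF-kappaB match (B2m, H2-K1, H2-D1 and Ubd), 1 an ISRE (B2m) and 1 a GAS (Psmb8). These are letter matches, and nothing in the arrays shows binding there.

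After quantile normalization, Tap2 and Tapbp were low in Ad-Med1 at day 3, while Tap1 was high at day 5. Tap1, a subunit of the peptide pump, read 9.13 (day 5) and 7.91 (day 3) in Ad-Med1, against 8.38 (day 5) and 7.85 (day 3) in Ad-LacZ. Its highest value was Ad-Med1 day 5, 0.75 (1.68-fold) above Ad-LacZ, with 0.06 at day 3. Day 5 exceeded day 3 by 1.22 (2.33-fold) in Ad-Med1 and by 0.54 in Ad-LacZ. Tap2, the partner subunit, read 10.34 (day 5) and 9.52 (day 3) in Ad-Med1, against 10.30 (day 5) and 10.34 (day 3) in Ad-LacZ. The Ad-Med1 day 3 array alone was low, by 0.82 against Ad-LacZ of that day, and at day 5 the viruses differed by 0.04. With each array set to its own median, the Tap2 day 3 difference turned to 0.66 without background correction and to 0.49 with it. Less the median of all genes, it ran from -0.80 to -0.35 over the 7 processings. The 2 subunits of 1 pump thus differed in which arrays were high, and Tap1 and Tap2 have 1 probe each.

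Tapbp, the chaperone that holds empty class I molecules at the pump, had, as reported, the most negative day 3 difference of the 10 genes. It read 8.55 (day 5) and 7.18 (day 3) in Ad-Med1, against 8.47 (day 5) and 8.84 (day 3) in Ad-LacZ, so that 1 array, Ad-Med1 day 3, was low. The difference was -1.65 (3.15-fold lower) at day 3 and 0.07 at day 5. Set against Ad-LacZ day 5, the Ad-Med1 day 3 value differed by -1.29. Its second probe, ILMN_3155492, gave -0.91 at day 3 and 0.15 at day 5. The 2 scalings to the array median gave Tapbp -0.03 and -0.29 at day 3, where B2m was lower, at -0.07 and -0.33. Quantiles without background correction gave -1.07 for Tapbp and -1.24 for Psmb10, so its rank depends on the processing. Less the median of all genes, Tapbp lay between -1.62 and -1.04 at day 3 over the 7 processings. In Ad-Med1 it was higher by 1.36 (2.57-fold) at day 5 than at day 3.

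Psmb9 and Tap1 start back to back, and their shared run of 225 bases (RefSeq, GRCm38.p6, chr17:34187331-34187555, plus strand) is shown because it lies between 2 genes that were both highest in Ad-Med1 day 5. Read in this direction, Tap1 starts after its last base, and Psmb9 starts before its first base on the other strand. It holds no match to the 3 motifs named above, so it has no capitals.
Psmb9 and Tap1: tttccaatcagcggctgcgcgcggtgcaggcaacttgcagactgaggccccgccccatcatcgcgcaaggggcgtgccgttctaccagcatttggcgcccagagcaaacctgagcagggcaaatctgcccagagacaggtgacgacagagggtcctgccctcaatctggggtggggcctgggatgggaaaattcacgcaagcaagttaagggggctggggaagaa
No match says only that these letters are not in this window.

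The immunoproteasome subunits had like patterns between the days of Ad-Med1. All 3 were highest in Ad-Med1 day 5, and all 3 were called higher at day 5 than at day 3 in Ad-Med1. Psmb8, which takes the place of the chymotrypsin-like subunit, read 12.73 (day 5) and 10.71 (day 3) in Ad-Med1, against 11.40 (day 5) and 10.71 (day 3) in Ad-LacZ. The viruses were alike at day 3 and differed by 1.33 (2.52-fold) at day 5, and Ad-Med1 was 4.06-fold higher at day 5 than at day 3. Its weaker probe, ILMN_2693940, gave 1.45 between viruses at day 5, -0.01 at day 3 and 1.77 between the days of Ad-Med1. Psmb9, which takes the place of the caspase-like subunit, read 12.41 (day 5) and 10.80 (day 3) in Ad-Med1, against 11.30 (day 5) and 10.46 (day 3) in Ad-LacZ. Ad-Med1 was thus above Ad-LacZ on both days, by 1.11 (2.16-fold) at day 5 and by 0.34 at day 3, while the Ad-Med1 day 3 value differed by -0.50 from Ad-LacZ day 5.

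Psmb10, which takes the place of the trypsin-like subunit, crossed over between the days. It read 12.28 (day 5) and 10.59 (day 3) in Ad-Med1, against 11.47 (day 5) and 11.81 (day 3) in Ad-LacZ. In Ad-Med1 it was therefore 1.76-fold higher at day 5 (0.82) and 2.34-fold lower at day 3 (-1.22). Its second probe, ILMN_2757870, gave 1.23 and -1.22. Under 1 scaling to the array median the day 3 difference was 0.067, and less the median of all genes the 7 processings gave -1.32 to -0.94. In Ad-Med1, Psmb10 was 3.23-fold higher at day 5 than at day 3, while in Ad-LacZ it differed by -0.35. Less the median of all genes, the 7 processings gave 0.99 to 1.34 for Psmb8, 0.83 to 1.14 for Psmb9 and 0.51 to 0.98 for Psmb10 between viruses at day 5. For day 5 minus day 3 in Ad-Med1 they gave 1.85 to 2.12, 1.47 to 1.69 and 1.54 to 1.88 for the same 3 genes.

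The promoter window of Psmb8 (RefSeq, GRCm38.p6, chr17:34197945-34198194, plus strand) is shown as the 1 window with a GAS match, which lies at -97 to -89 and stands in capitals.
Psmb8: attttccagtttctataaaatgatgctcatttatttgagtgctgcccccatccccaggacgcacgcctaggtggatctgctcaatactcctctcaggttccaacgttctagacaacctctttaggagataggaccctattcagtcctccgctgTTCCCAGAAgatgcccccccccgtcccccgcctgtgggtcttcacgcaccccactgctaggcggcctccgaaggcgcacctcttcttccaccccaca

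The constitutive subunits that these 3 genes replace did not show the same pattern. Between the days of Ad-Med1, Psmb6, Psmb7 and Psmb5 differed by -0.07, -0.03 and -0.27, against 1.61, 1.69 and 2.02 for Psmb9, Psmb10 and Psmb8. The difference of the inducible subunit less that of its constitutive partner was 1.68 for Psmb9, 1.72 for Psmb10 and 2.30 for Psmb8. This value is free of a constant added to all log2 signals of an array, but not of quantile normalization or background correction. Over the 7 processings it ran from 1.54 to 1.73, from 1.56 to 1.82 and from 2.06 to 2.30. Between viruses at day 5 the same values were 1.04, 0.59 and 1.73. Over the 7 processings these day 5 values ran from 1.03 to 1.52, from 0.58 to 1.09 and from 1.24 to 1.79. At day 3 the values were 0.05, -1.65 and -0.66. Over the 7 processings they ran from 0.02 to 0.60 for Psmb9, from -1.69 to -1.28 for Psmb10 and from -0.88 to -0.34 for Psmb8. Of the other 20S core subunits, 8 of 11 were detected, and none was called in either direction at day 5, at day 3 or between the days of either virus. In the proteasome activator and assembly list, 0 of 5 genes were called between viruses at day 5. Psme2, a subunit of the interferon-inducible activator, was 2.23-fold lower in Ad-Med1 at day 3, and its partner Psme1 differed by 0.79 at day 5 and 0.07 at day 3.

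**Figure D4:**
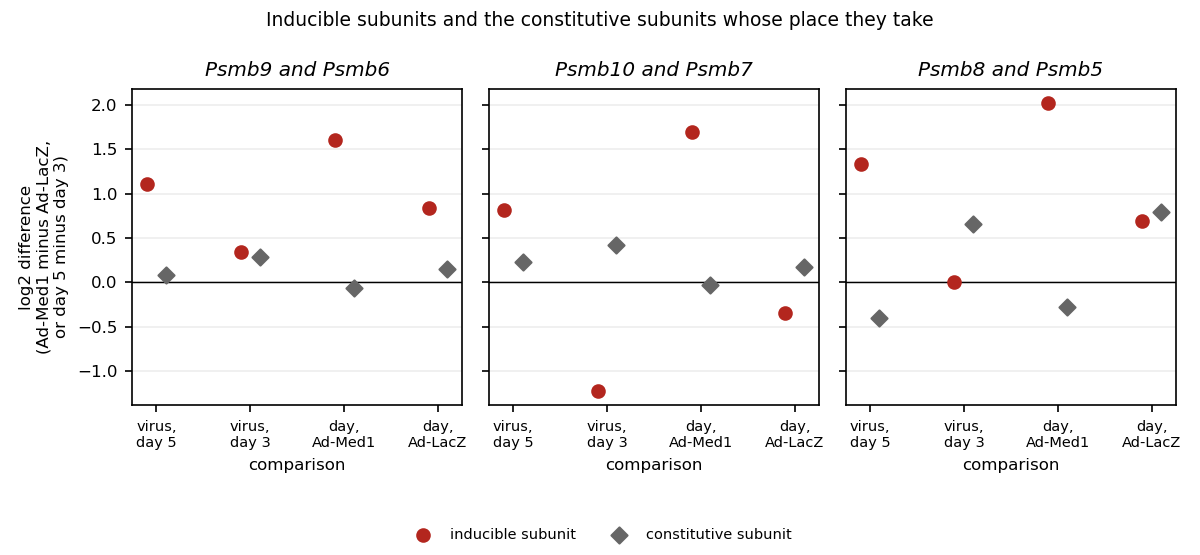
Log2 difference (vertical axis) of each inducible subunit (circle) and the constitutive subunit it replaces (diamond) in 4 comparisons (horizontal axis): Ad-Med1 minus Ad-LacZ at day 5 and day 3, and day 5 minus day 3 in Ad-Med1 and in Ad-LacZ. Between the days of Ad-Med1 the inducible subunits stand at 1.61 to 2.02 and their partners at -0.27 to -0.03.

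Ubd had the largest difference of any gene at day 5. In Ad-Med1 its probe had a deposited intensity of 9782 (day 5) and 285.7 (day 3), against 127.3 (day 5) and 126.8 (day 3) in Ad-LacZ. On the log2 scale these were 12.66 and 6.81 in Ad-Med1 and 6.64 and 7.26 in Ad-LacZ. A single array was high, and the other 3 lay near the detection limit, with detection p-values of 0.0011 in Ad-Med1 day 3 and of 0.0032 and 0.0021 in Ad-LacZ day 5 and day 3. Against Ad-LacZ, Ubd was 64.7-fold higher in Ad-Med1 at day 5 (6.02), rank 1 of the 9261 genes tested, and differed by -0.45 at day 3. In Ad-Med1 it was 57.4-fold higher at day 5 than at day 3, rank 2 of 9267 genes. Less the median of all genes, the day 5 difference between viruses lay between 4.73 and 6.01 over the 7 processings. Set against Ad-LacZ day 3, the Ad-Med1 day 5 value differed by 5.40. Ubd rests on 1 probe and 1 array. In the fit over both days, where a change of the virus difference with time counts as noise, Ubd differed by 2.79 ± 1.71 (SE, 4 arrays), with an adjusted p of 0.483.

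The Ubd promoter window (RefSeq, GRCm38.p6, chr17:37193642-37193891, plus strand) is shown because of this difference, with its NF-kappaB match at -15 to -6 in capitals.
Ubd: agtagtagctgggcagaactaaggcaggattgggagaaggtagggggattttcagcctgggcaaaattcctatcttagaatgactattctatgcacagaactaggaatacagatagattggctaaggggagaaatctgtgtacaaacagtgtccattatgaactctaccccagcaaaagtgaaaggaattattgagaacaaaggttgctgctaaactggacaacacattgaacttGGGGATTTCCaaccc

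Of the 4 listed partners of FAT10, 3 were tested, and 0 of these were called between viruses at day 5: Uba6, its activating enzyme, differed by -0.67, Ube2z, its conjugating enzyme, by -0.36 and Sqstm1, an autophagy receptor that binds it, by -0.20. Uba6 was 3.59-fold higher in Ad-Med1 at day 3, and in Ad-Med1 it was 2.29-fold lower at day 5 than at day 3.

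Across both days together, none of the 10 genes passed the limma fit for virus at an adjusted p under 0.05, and neither did any of the 9566 genes fitted. Adjusted p-values of the 10 genes ran from 0.367 to 0.936, and 1 of them, H2-D1, had an unadjusted p under 0.05, as did 13.5% of all genes. For day, 0 genes passed and all 10 adjusted p-values were 0.9999. Psmb8 (1.36 ± 0.46, unadjusted p 0.0454) and Psmb9 (1.23 ± 0.36, unadjusted p 0.0305) were under 0.05 before adjustment (SE, 4 arrays), as were 2.03% of all genes. The fit has 1 residual degree of freedom, which is the change of the virus difference between days, and 6 of the 10 genes had differences of opposite sign on the 2 days. That count was 2 to 6 over the 7 processings, and 4 to 6 for differences less the median of all genes. The share of all genes with opposite signs was not counted.

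In the rest of the class I pathway, the reported day 5 calls lay in peptide loading and transactivation, not in the nonclassical chains. That split depends on the processing. At day 5 the 7 processings called 1 to 4 loading and transactivation genes higher. For the nonclassical and other class I-like chains they called 0 to 4. Less the median of all genes, the list medians ran from 0.29 to 0.66 and from -0.29 to 0.35. Of 7 detected genes for loading and class I transactivation, 3 were called higher at day 5 in Ad-Med1 and 1 lower. Their median was 0.52 against 0.07 for all genes, of which 10.2% were called higher and 7.68% lower. Tapbpl, a tapasin relative that edits peptides, was 2.53-fold higher, Nlrc5, the transactivator of class I genes, 2.38-fold, and Erap1, which trims peptides in the endoplasmic reticulum, 2.06-fold. Rfxank, a subunit of the RFX complex, was at least 1.42-fold lower. Nlrc5 read 9.48 (day 5) and 8.97 (day 3) in Ad-Med1, against 8.22 (day 5) and 8.45 (day 3) in Ad-LacZ. At day 3, 1 of 6 detected genes was called, Erap1, at least 1.76-fold higher. The nonclassical and other class I-like chains gave 0 of 8 detected genes called at day 5, with a median of 0.36. At day 3, 3 of 9 were called higher and 1 lower, with a median of 0.24, beside 17.4% and 12% of all genes. H2-Q7 was 2.86-fold and H2-Q6 2.61-fold higher, H2-Q10, a secreted class I chain of liver, at least 2.88-fold higher, and H2-M3, which presents formylated peptides, 2.37-fold lower. Against Ad-LacZ day 5, none of the 9 was called, as for H2-K1.

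In the interferon gamma list, 12 of 20 detected genes were called higher in Ad-Med1 at day 5 and 0 lower, with a median of 1.13 against 0.07 for all genes. The other 8 did not pass 2-fold, with Ifngr2, a receptor subunit, lowest at -0.54. Between the days of Ad-Med1, 12 of 20 were called higher, 0 lower, with a median of 1.43 against -0.04. Cxcl9, a chemokine that draws T cells, was 10.3-fold higher at day 5 in Ad-Med1, Gbp2, a guanylate-binding protein, 9.50-fold, Tgtp1, an interferon-induced GTPase, 8.13-fold and Gbp5 at least 2.76-fold. Cxcl9 read 13.95 (day 5) and 10.44 (day 3) in Ad-Med1, against 10.58 (day 5) and 10.62 (day 3) in Ad-LacZ, and so had 1 high array, as Ubd did. Ifng itself was detected on no array. At day 3, 3 of 18 detected genes were called higher, 0 lower, with a median of 0.20, a share near the 17.4% of all genes called higher. These were Jak1 (at least 5.90-fold), Irf8 (at least 3.07-fold) and Tgtp1, none of them detected on Ad-LacZ day 3. Set against Ad-LacZ day 5, Ad-Med1 day 3 had none called higher and 3 lower.

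Among type I interferon response genes, 5 of 18 detected were called higher in Ad-Med1 at day 5, 0 lower, with a median of 0.55. Rtp4 was at least 2.29-fold, Ifit2 2.26-fold, Oasl2 2.26-fold and Irf7 2.06-fold higher. At day 3, 3 of 17 were called higher and 1 lower, with a median of 0.63, again near that 17.4%, and with the other control 0 higher and 5 lower. Isg15, a ubiquitin-like modifier as FAT10 is, was 3.34-fold lower in Ad-Med1 at day 3, where Oasl2 was 2.47-fold higher and Ifit2 at least 2.02-fold. Of 7 detected NF-kappaB pathway genes, 4 were called higher at day 5 and 0 lower, with a median of 1.04, beside 10.2% of all genes called higher. Over the 7 processings, 1 to 6 were called higher, and the median ran from 0.42 to 1.68. Less the median of all genes, it ran from 0.09 to 0.98. Nfkb2, Relb, Nfkbie and Tnfaip3 were not detected on Ad-LacZ day 5. Tnfaip3, an inhibitor of the pathway, was at least 4.12-fold higher and Nfkbia 2.06-fold. At day 3, 1 of 4 detected genes was called higher and 1 lower, with a median of -0.20. Tnf was not detected on any array.

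MHC class II genes, whose products present peptides to CD4 T cells, differed in opposite directions on the 2 days. At day 5, 8 of 8 detected genes were called higher in Ad-Med1, with a median of 1.95, and at day 3, 0 of 7 were higher and 6 lower, with a median of -1.97. Cd74, the invariant chain, was 5.81-fold higher at day 5 and 3.92-fold lower at day 3, and H2-Ab1, a beta chain, 4.52-fold higher and 4.98-fold lower. With the Ad-LacZ array of the other day as control, the counts were again 8 of 8 higher for Ad-Med1 day 5 and 6 of 7 lower for Ad-Med1 day 3. Of the 10 genes described here, Psmb10, Tapbp and Tap2 share the low value in Ad-Med1 day 3, and H2-D1 and H2-K1 do not.

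**Figure D5:**
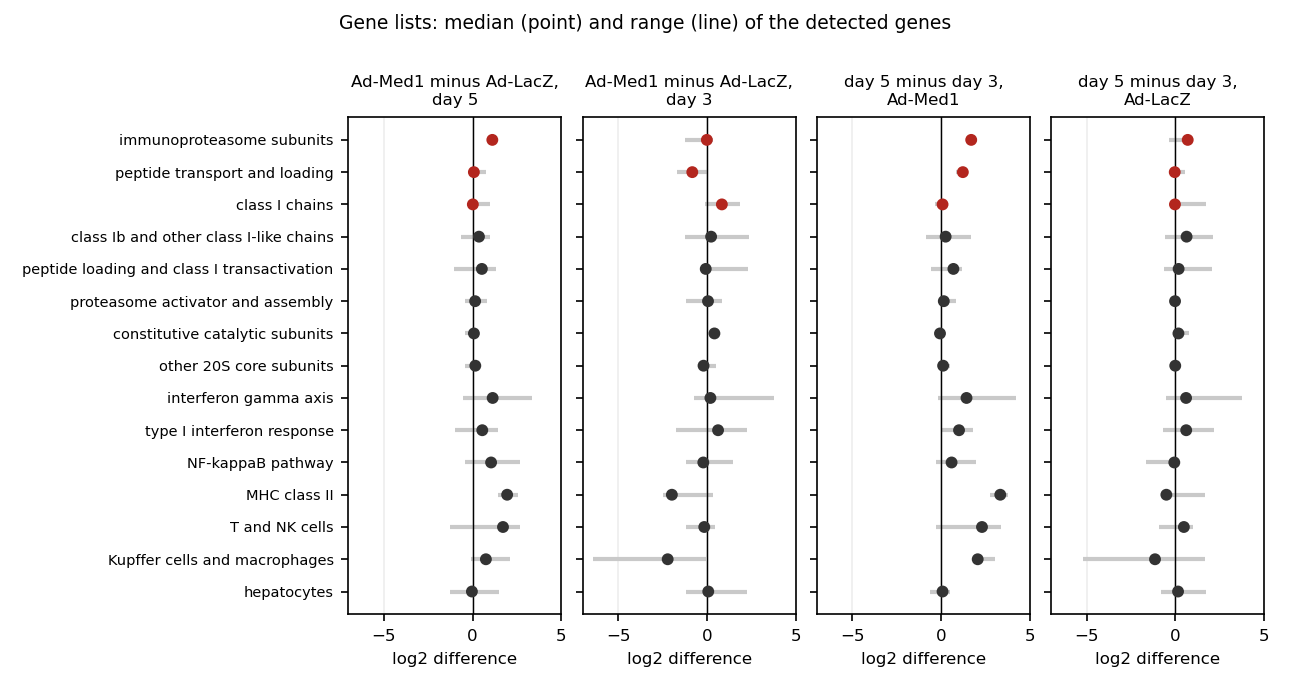
Log2 difference (horizontal axis) of gene lists (vertical axis) in 4 comparisons; the point is the median and the line the range over detected genes, with the groups of the 10 genes in red. Immunoproteasome subunits, interferon gamma genes, MHC class II, T and NK markers and macrophage markers lie right of 0 between the days of Ad-Med1, while hepatocyte markers and constitutive proteasome subunits lie near 0.

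Markers of immune cells also differed between arrays, not all in the pattern of these genes. In whole liver a change in the number of cells cannot be told apart from a change in RNA per cell. Among 18 T and NK cell markers, Ad-Med1 day 5 detected 11 and Ad-Med1 day 3 detected 4, against 6 for Ad-LacZ day 5 and 5 for Ad-LacZ day 3. Their summed signal was 7191 and 3756 in Ad-Med1, against 3178 and 3202 in Ad-LacZ. At day 5, 9 of 11 detected markers were called higher in Ad-Med1 and 1, Prf1, lower, with a median of 1.71. Cd3e was at least 4.72-fold higher, Klrd1 at least 4.06-fold, Thy1 4.88-fold and Cd3g 4.53-fold, while Cd4, Cd8a and Gzmb were detected on no array. Kupffer cell and macrophage markers were detected for 9 and 5 of 11 genes in Ad-Med1 at day 5 and day 3, against 8 and 10 in Ad-LacZ. Their summed signal was 10601 and 2403, against 6487 and 14631. At day 5, 2 of 9 were called higher in Ad-Med1 and 0 lower, and at day 3, 0 of 10 were higher and 8 lower. Vsig4 and Clec4f, which define Kupffer cells, were not detected in Ad-Med1 day 3, where Vsig4 was at least 62.8-fold and Clec4f at least 39.2-fold lower. Between the days of Ad-Med1, 8 of 11 T and NK markers and 9 of 9 macrophage markers were called higher, as were 6 of the 10 genes. Neutrophil markers were detected for 7 and 8 of 8 genes in Ad-Med1, against 3 and 2 in Ad-LacZ. In Ad-Med1, 6 of 7 were called higher at day 5 (median 1.90) and 8 of 8 at day 3 (median 1.77), 0 lower. Set against Ad-LacZ day 5, Ad-Med1 day 3 had 5 of 8 called higher. Of 6 B cell markers at most 2 were detected on an array, and of 8 dendritic cell markers at most 1. The hepatocyte list had medians of -0.04 (day 5) and 0.08 (day 3) between viruses, with all 11 genes detected on 3 arrays. Of these, 1 was called higher and 2 lower in Ad-Med1 at day 5, and 2 higher and 1 lower at day 3. Over the 7 processings, the hepatocyte median less that of all genes ran from -1.41 to -0.05 at day 5. At day 3 it ran from -1.42 to 0.19. Erythroid markers, which come with blood and its precursors, had a summed signal of 69532 (day 5) and 3131 (day 3) in Ad-Med1, against 54269 (day 5) and 78000 (day 3) in Ad-LacZ, with all 4 genes detected on every array. All 4 were called lower in Ad-Med1 at day 3 (median -4.68, and -4.20 against Ad-LacZ day 5), none at day 5, and all 4 were higher at day 5 than at day 3 in Ad-Med1 (median 4.69). That low array is also the one in which Psmb10, Tapbp, Tap2 and the class II genes were low. The part of these cells in the levels of the 10 genes was not tested.

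The genes whose pattern over the 4 arrays was most like the median pattern of the 10 genes were sought among 7181 others detected on all arrays, by Euclidean distance between log2 profiles less their own means. The median pattern was 0.62 in Ad-Med1 day 5 and 0.03 in Ad-LacZ day 5, and -0.52 in Ad-Med1 day 3 and -0.45 in Ad-LacZ day 3. The 8 nearest were Btk (distance 0.233), a kinase of B cell receptor signalling that myeloid cells also use, Fam78a (0.247), Myo1f (0.251), a myosin of leukocytes, Laptm5 (0.253), a lysosomal protein of blood cells, P2ry14 (0.262), a receptor for UDP-sugars, Evi2a (0.266), Cotl1 (0.273), an actin-binding protein, and Srgn (0.277), the proteoglycan of secretory granules. Btk read 8.14 in Ad-Med1 day 5 and 7.33 in Ad-LacZ day 5, and 6.97 in Ad-Med1 day 3 and 6.96 in Ad-LacZ day 3. This is a likeness over 4 arrays only.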

How the data were processed

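Liver RNA was measured on 4 Illumina arrays, 1 for each virus and day, with groups taken from the sample titles. Per the labels' protocols, Trizol extraction and a DNase clean-up came before biotin labelling (Ambion MessageAmp). Per the file headers, the deposited table is not normalized and gives a probe intensity on a linear scale. Each intensity has, per the file headers, a detection p-value; its steps are 1 over 936. The deposited series values equalled these intensities (largest difference 0; median 164 in Ad-Med1 day 5, 100.4 in Ad-LacZ day 5, 153 in Ad-Med1 day 3 and 94.1 in Ad-LacZ day 3), so scale and direction are known and no centring was done. For scanner software and bead summary, the sources used here state nothing.

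Values were processed with neqc (limma 3.58.1, R 4.3.3), that is, normexp with an offset of 16 on a background inferred from detection p-values, then quantiles and log2. Genes were named from the platform annotation: 34885 probes have 1 symbol, 18 several and 10378 none, and 34807 gene identifiers matched RefSeq. A gene is represented by its probe with the highest mean signal, and 9566 of 19057 genes were detected (detection p under 0.01) on at least 1 array. Where the dimmer array did not detect a probe, the fold is a lower bound, taken against that array's lowest detected signal, or the probe's own value where higher; below 1 no fold is given. Lists are described by counts and medians. The fit used lmFit and eBayes on virus and day (1 residual and 2.69 prior degrees of freedom), with Benjamini-Hochberg adjustment over all 9566 genes. It was also run on simulated data whose virus differences were the same on both days. That run cannot speak to genes whose virus difference changes between days. Nothing says that the arrays are separate animals, so no p-value measures a spread between animals. In the fit of these arrays, the residual spread is the change of the virus difference between days. The number of arrays limits the precision.

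The 10 genes, the other lists and the tests were chosen with earlier results of these data known. In other lists, genes called between viruses at a day were named in order of size, up to 4 per list and day, and the rest counted; Psme1, Nlrc5 by array, Prf1 and markers listed as undetected were named after their values were seen, and so were the genes singled out for the day comparison. Promoters and neighbours come from RefSeq (GRCm38.p6), where 9 of the 10 genes had a window; Tap2 is named only. Tables and plots used Python 3.11.15, numpy 2.4.6, pandas 2.3.3 and matplotlib 3.10.9.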

Additional observations from a re-analysis of the deposited data

Results flagged for a closer look

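For 6 of the 10 genes the difference between Ad-Med1 and Ad-LacZ had opposite signs on the 2 days, with 1 array per group and day, and the difference between days was not tested. As the day 5 difference minus the day 3 difference on the log2 scale, these were 6.46 for Ubd (6.02 and -0.45), 2.04 for Psmb10 (0.82 and -1.22), 1.73 for Tapbp (0.07 and -1.65) and 0.86 for Tap2 (0.04 and -0.82). In H2-K1 it was -2.06 (-0.18 and 1.88), and in B2m 0.14 (0.02 and -0.12). The values of Psmb10, Tapbp and Tap2 lie with a low Ad-Med1 day 3 array, that of H2-K1 with a low Ad-LacZ day 3 array and that of Ubd with a high Ad-Med1 day 5 array. How many of all genes had opposite signs was not counted. The count for the 10 genes depends on scaling. Over 7 processings it was 2 to 6 of the 10 genes, and 4 to 6 for differences less the median of all genes. With log2 intensities set to the array median, H2-K1 and Tapbp alone had opposite signs, while Ubd was 5.56 and 0.47, Psmb10 1.67 and 0.067 and Tap2 1.20 and 0.66 at day 5 and day 3. Less the median of all genes as reported, H2-K1, Tapbp, Psmb10 and Ubd did. With the mean of a gene's probes, H2-K1 was not among the genes of opposite sign, but less the median of all genes it was. The brightest B2m probe differed by at most 0.12 between any 2 arrays.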

How the results depend on the processing

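The number of arrays and the brightness of the Ad-Med1 arrays limit these results. No paired analysis was possible because the labels give no replicate numbers and each group has 1 array.

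With log2 intensities set to the array median, the 10 genes gave 5 higher and 0 lower at day 3 (median 0.86; 50.3% of all genes higher), 8 higher at day 5 (median 1.41; 39.1%) and 3 higher between the days of Ad-LacZ (7.36%), and 5 passed the fit for virus, among 52.1% of all genes; Psmb10 at day 3 was then 0.067 and Tap2 0.66. With background correction before that scaling, the counts were 5 and 0 at day 3 (median 0.94), where 56.7% of all genes were higher, 7 higher at day 5 (45% of all genes) and 3 higher between the days of Ad-LacZ (median 0.61; 15.5%), and 3 passed the fit, among 18.1% of all genes. With the mean of a gene's probes, 2 were higher at day 3 (17.3% of all genes) and 5 at day 5 (9.67%). With the control array of the other day, 0 were higher (9.26%) and 1 lower (6.64%) at day 3, and 5 higher at day 5 (18.1%). At a 1.5-fold threshold, 2 were higher at day 3 (26.2% of all genes), 6 at day 5 (22.4%), and 3 higher and 1 lower between the days of Ad-LacZ (18.3% each).

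Between the days of Ad-Med1, 4 to 7 of the 10 genes were called higher under 9 alternatives, with a median of 0.86 to 1.42; these alternatives were chosen after seeing the data, as were those for Ad-LacZ. Quantiles without background correction, an offset of 50, undetected signals at the lowest detected one, a detection p of 0.05 and detection on all arrays moved none of the counts of the 10 genes between viruses by over 1.5 times. Leaving out each array in turn, in a fit with 1 term, 0 of the 10 genes passed for virus or for day, and without Ad-LacZ day 5 4.32% of all genes passed for virus. All genes called higher ran from 711 to 5130 at day 3 (1576 as reported) and from 363 to 4165 at day 5 (943), and those called lower from 34 to 2220 (1085) and from 61 to 1619 (711). The split moved with scaling: to the array median, 4551 higher and 34 lower at day 3 and 3619 and 61 at day 5.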
